A study of Mus musculus with 8 samples.

Results

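The genes described here are 36 nucleolar genes of ribosome biogenesis, named for their roles in making and assembling ribosomes. In the deposited table of 49641 gene entries, 35 of the 36 were found by their symbol, and all 35 were abundant enough to be tested. The exception was Utp4, whose gene identifier (ENSMUSG00000041438.8) is filed under the older symbol Cirh1a, so its values are given separately and it stays out of the counts. The values are from RNA sequencing of mouse embryonic stem cells, with 8 libraries in 4 groups of 2. The siMbnl1/2 group is Dgcr8 knockout (KO) cells that received siRNAs against Mbnl1 and Mbnl2, a pair of splicing regulators that bind RNA. The miR-294 group is Dgcr8 KO cells that received a synthetic miR-294 mimic. The Dgcr8 KO and WT groups are the mock-treated knockout and wild-type cells. The labels name no group that received a control mimic or a control siRNA. Effects of a transfected small RNA as such therefore cannot be told apart from those of miR-294 or of the siRNAs. Mimic and siRNAs were used at 50 nM, 16 h after plating, and all cells were kept in serum and LIF, either on gelatin or on feeder fibroblasts that had been irradiated. The labels give every sample as V6.5, a line of 129/C57BL/6 background, while the table heads the wild-type columns V65 and the knockout columns ES1. Whether both came from 1 parental line is therefore unknown, and a difference between lines would be part of any difference between Dgcr8 KO and WT. Both transfected groups carry the Dgcr8 knockout, and nothing in the labels says that the 2 libraries of a group came from separate cultures, so p-values measure the spread between these libraries only.

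Ribosomes are built in the nucleolus, where RNA polymerase I copies the ribosomal RNA genes into a long precursor. Small nucleolar ribonucleoproteins (snoRNPs) modify that precursor, box C/D particles by methylation and box H/ACA particles by pseudouridylation, and large assemblies of processing factors then cut and fold it into the small and the large subunit. The proteins for this work are needed in step with growth, and in many cell types the transcription factor Myc raises their transcripts. Dgcr8 is the partner of the nuclease Drosha in the first step of microRNA maturation, so cells without it lack canonical microRNAs. Mouse embryonic stem cells are rich in microRNAs of the miR-290 family, of which miR-294 is a member. Its mature sequence is shown because it is the agent that was given to the miR-294 group, with the seed, bases 2 to 8, in capitals. It lies on the plus strand at chr7:3220691-3220712 (RefSeq, GRCm38.p6).
mmu-miR-294-3p: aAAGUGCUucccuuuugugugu

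All values are FPKM, the fragments of a gene divided by the length of its transcript and by the mapped fragments of the library, so a level is relative to the rest of its library. The number of fragments behind a level is not known, which leaves it without a counting interval. Differences are of log2(FPKM + 1), a scale that understates the change of low genes, and a difference was called where limma's p, adjusted by Benjamini-Hochberg over 12786 genes, was under 0.05. Dgcr8 had 7.896 and 6.58 FPKM in siMbnl1/2 libraries, 6.81 and 7.28 FPKM in miR-294 libraries, 7.89 and 8.496 FPKM in Dgcr8 KO libraries and 22.9 and 21.9 FPKM in WT libraries, and was lower in the 3 knockout groups than in WT. Mbnl2 had 11.2 and 14.3 FPKM in siMbnl1/2 libraries, against 24.7 and 28.6 FPKM in Dgcr8 KO libraries, and Mbnl1 had 6.84 and 6.76 FPKM, against 8.003 and 9.42 FPKM. Of these knockdowns the Mbnl2 difference was called (-1.01 ± 0.12 SE, adjusted p = 0.0191, limma) and that of Mbnl1 was not (-0.31 ± 0.10, adjusted p = 0.158). The Mbnl2 call held under 8 of 16 alternatives. It was lost with no filter (adjusted p = 0.059, limma), with group weights (0.0537) and with only the libraries compared (0.137). Leaving out Dgcr8 KO replicate 2 or any 1 WT or miR-294 library also ended the Mbnl2 call. All 9 pluripotency markers examined were at 35.9 FPKM or more in every library, but their levels differed between groups. In Dgcr8 KO against WT, Nanog (0.87), Sox2 (1.03) and Dppa5a (0.35) were called higher and Pou5f1 (-0.49), Zfp42 (-0.51), Utf1 (-0.89) and Sall4 (-0.66) lower, and with miR-294 each of these was called in the opposite direction. The summed level of 11 fibroblast markers was 3.45 and 3.86 FPKM in siMbnl1/2 libraries, 6.02 and 5.33 FPKM in miR-294 libraries, 3.07 and 2.99 FPKM in Dgcr8 KO libraries and 5.25 and 4.04 FPKM in WT libraries, with 1 or 2 of the 11 at 1 FPKM or more and Postn at 0 in 7 of the 8 libraries. The sums were thus higher in the miR-294 and WT libraries. Thy1, the highest of the 11 in every library, had 3.64 and 3.76 FPKM in miR-294 libraries and 2.71 and 1.94 FPKM in WT libraries. It had 1.59 and 1.75 FPKM in siMbnl1/2 libraries and 1.65 and 1.54 FPKM in Dgcr8 KO libraries. Not all markers shared this order, and Pdgfrb was highest in the siMbnl1/2 libraries (0.68 and 0.76 FPKM). The summed level of 8 lineage markers was 13.5 and 15.0 FPKM in siMbnl1/2 libraries, 10.2 and 10.7 FPKM in miR-294 libraries, 21.7 and 21.6 FPKM in Dgcr8 KO libraries and 40.1 and 40.9 FPKM in WT libraries. The endoderm genes Gata6, Gata4 and Sox17, picked out after their values were seen, were at 8.41 to 12.04 FPKM in WT and at 3.15 FPKM or less in every other library. Pax6, a neural marker of the same list, ran the other way between Dgcr8 KO (9.61 and 9.81 FPKM) and WT (1.296 and 1.85 FPKM), and Sox1 had 8.44 and 8.54 FPKM in Dgcr8 KO and 7.33 and 7.82 FPKM in WT. The part of these cell types in the results below was not tested. In bulk RNA, fewer cells with a transcript and less of it per cell cannot be told apart.

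All 35 ribosome biogenesis genes were called lower in Dgcr8 KO cells than in WT, where 30.1% of all tested genes were. All 35 were called higher with miR-294 than in Dgcr8 KO, where 22.9% of all genes were. Their miR-294 levels had a median of 97.1% of WT. None was called after siRNAs against Mbnl1 and Mbnl2, but only 0.868% of all genes were called higher there and 0.242% lower. Together the 35 genes held 0.946% and 0.816% of the FPKM of the siMbnl1/2 libraries, 1.40% of each miR-294 library, 0.885% and 0.949% of the Dgcr8 KO libraries, and 1.36% and 1.37% of the WT libraries. Npm1 and Ncl made up much of each sum. Without them it was 2467 of 4835 and 2300 of 4209 FPKM in siMbnl1/2 libraries and 3903 of 7565 and 3926 of 7684 FPKM in miR-294 libraries. In Dgcr8 KO libraries it was 2400 of 4446 and 2320 of 4496 FPKM, and in WT libraries 4079 of 7767 and 4031 of 7718 FPKM. The miR-294 and WT libraries were high, the siMbnl1/2 and Dgcr8 KO libraries were low, and neither of the low groups overlapped either of the high ones.

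**Figure D1:**
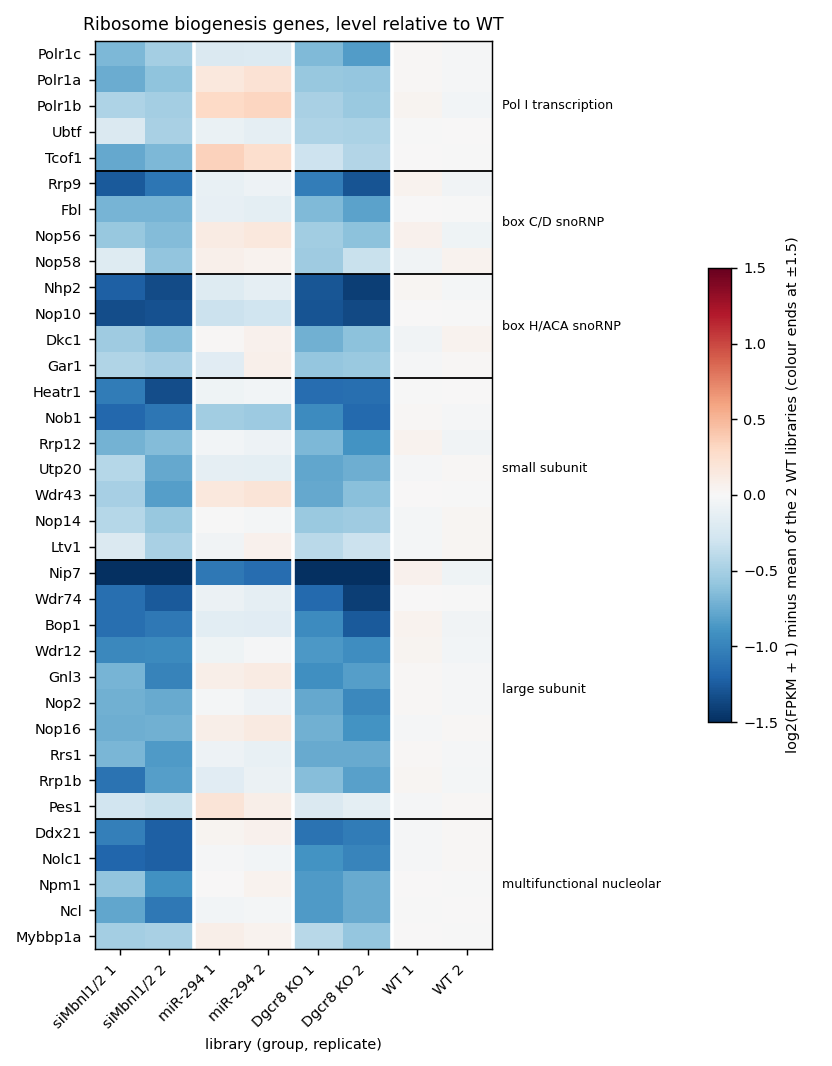
Level of each of the 35 genes in each of the 8 libraries, as log2(FPKM + 1) minus the mean of the 2 WT libraries, with genes ordered by role and colours ending at 1.5 in either direction. The siMbnl1/2 and Dgcr8 KO columns are below the WT mean for every gene, while in the miR-294 columns Nip7 and Nob1 are the furthest below WT.

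In Dgcr8 KO cells the 35 genes had a median difference from WT of -0.75 on the log2(FPKM + 1) scale, against 0.00 over all 12786 genes tested. All 35 were called lower and 0 were called higher, where 30.1% of all tested genes were called lower and 29.6% higher. Both Dgcr8 KO libraries lay below both WT libraries for each of the 35, which was so for 40.9% of all genes. The mean level in Dgcr8 KO cells, as a share of the WT mean, ran between 17.99% for Nip7 and 87.9% for Pes1, with a median of 58.0%, and 9 genes were under 50%. Under quantile normalization 30 were called lower, since Mybbp1a (-0.15, adjusted p = 0.0569, limma), Ubtf (-0.17, 0.116), Nop58 (-0.18, 0.267), Ltv1 (-0.24, 0.102) and Pes1 no longer were. Across the 35 genes the level and the log2 difference had a Spearman's rho of 0.067, given as a description because the genes share the same libraries.

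With miR-294 the same genes had a median difference from Dgcr8 KO of 0.76, against -0.06 over all genes. All 35 were called higher and 0 lower, where 22.9% of all tested genes were called higher and 29.2% lower, and all 35 had both miR-294 libraries above both Dgcr8 KO libraries, as 35% of all genes did. The miR-294 mean was between 126% of the Dgcr8 KO mean for Pes1 and 257% for Nip7, with a median of 171%, and 26 genes were at 150% or more. Under quantile normalization 32 were called higher, since Ubtf (0.17, adjusted p = 0.141, limma), Nop58 (0.20, 0.231) and Pes1 (0.13, 0.186) no longer were. This comparison shares its Dgcr8 KO libraries with the one against WT, so a chance deviation of those libraries would move both in opposite directions. The comparison of miR-294 with WT, given further on, does not use them as an arm.

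**Figure D2:**
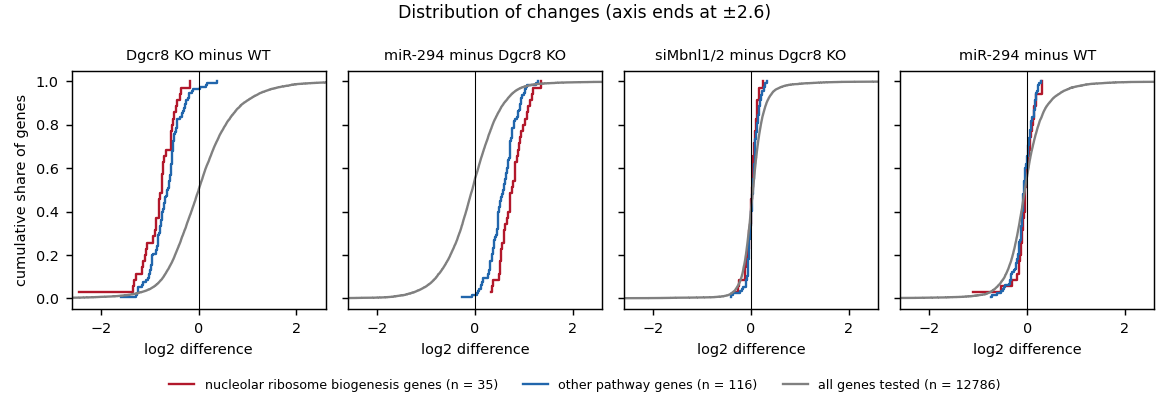
Cumulative share of genes by log2 difference for the 35 ribosome biogenesis genes, 116 other genes of the pathway and all 12786 genes tested, in 4 comparisons. The curve of the 35 lies left of that of all genes in Dgcr8 KO minus WT (medians -0.75 and 0.00), right of it in miR-294 minus Dgcr8 KO (0.76 and -0.06), and near it for siMbnl1/2 against Dgcr8 KO (0.02 and 0.04) and miR-294 against WT (-0.04 and -0.05).

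The polymerase I genes act first in the pathway and had the smallest median fall of the 6 roles. Polr1a and Polr1b are the catalytic subunits of RNA polymerase I, Polr1c is a subunit that it shares with polymerase III, Ubtf binds the ribosomal DNA, and Tcof1 (treacle) supports its transcription. All 5 fell in Dgcr8 KO and rose with miR-294. The 5 genes had a median of -0.52 in Dgcr8 KO against WT and 0.68 in miR-294 against Dgcr8 KO. Polr1c, at chr17:46243920-46248054 (mm10), had 116 and 131 FPKM in siMbnl1/2 libraries, 161 and 162 FPKM in miR-294 libraries, 118 and 104 FPKM in Dgcr8 KO libraries and 189 and 185 FPKM in WT libraries. It fell most of the 5 in Dgcr8 KO cells, by 0.75 ± 0.08 (SE, adjusted p = 0.000191, limma), and rose by 0.54 ± 0.08 with miR-294 (adjusted p = 0.00138). Polr1b had 34.2 and 33.1 FPKM in siMbnl1/2 libraries, 58.5 and 59.96 FPKM in miR-294 libraries, 33.7 and 32.1 FPKM in Dgcr8 KO libraries and 48.8 and 46.4 FPKM in WT libraries. Its miR-294 libraries were the highest of the 8, and its rise over Dgcr8 KO was the largest of the group (0.83 ± 0.06, adjusted p = 9.18e-05, limma). Tcof1 had 36.02 and 38.6 FPKM in siMbnl1/2 libraries, 79.2 and 74.01 FPKM in miR-294 libraries, 49.9 and 45.3 FPKM in Dgcr8 KO libraries and 62.4 and 61.6 FPKM in WT libraries, and so was lowest after the siRNAs, with no overlap between any 2 groups. Polr1a differed by -0.58 in Dgcr8 KO and 0.76 with miR-294. Ubtf changed by -0.47 ± 0.09 in Dgcr8 KO and by 0.35 ± 0.09 with miR-294 (adjusted p = 0.00261 and 0.0119, limma). The second of these was lost without miR-294 replicate 1 (adjusted p = 0.0716) or without miR-294 replicate 2 (adjusted p = 0.0543).

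All 8 genes of the snoRNP proteins fell in Dgcr8 KO and rose with miR-294. The medians of the 4 box H/ACA genes were -0.998 in Dgcr8 KO and 0.86 with miR-294, and those of the 4 box C/D genes were -0.65 and 0.66. With 4 genes in each, whether the sets differ was not tested. Nhp2, a core protein of every box H/ACA particle and of telomerase, lies at chr11:51619735-51623714 (mm10) and had 104 and 95.1 FPKM in siMbnl1/2 libraries, 212 and 222 FPKM in miR-294 libraries, 99.4 and 91.1 FPKM in Dgcr8 KO libraries and 248 and 239 FPKM in WT libraries. It fell by 1.35 ± 0.07 in Dgcr8 KO (SE, adjusted p = 9.91e-06, limma) and rose by 1.18 ± 0.07 with miR-294 (adjusted p = 4.78e-05). Nop10, the smallest core protein, followed it closely, with differences of -1.33 and 1.02. Dkc1, the pseudouridine synthase, differed by -0.67 and 0.71, and Gar1 by -0.57 and 0.52.

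In the box C/D set the U3-specific protein Rrp9 moved most. It had 61.2 and 69.4 FPKM in siMbnl1/2 libraries, 136 and 140.4 FPKM in miR-294 libraries, 71.3 and 59.7 FPKM in Dgcr8 KO libraries and 153 and 143 FPKM in WT libraries, a fall of 1.17 ± 0.10 in Dgcr8 KO (SE, adjusted p = 6.19e-05, limma) and a rise of 1.07 ± 0.10 with miR-294 (adjusted p = 0.000166). Nop56, a scaffold protein of all box C/D particles, had 296 and 278 FPKM in siMbnl1/2 libraries, 477 and 488 FPKM in miR-294 libraries, 305 and 284 FPKM in Dgcr8 KO libraries and 457 and 419 FPKM in WT libraries. Its miR-294 libraries were the highest of the 8. Fbl, the methyltransferase of the particles, differed by -0.73 in Dgcr8 KO and 0.60 with miR-294. Nop58, the partner of Nop56, had the smallest differences of the set, -0.43 ± 0.13 and 0.49 ± 0.13 (adjusted p = 0.0199 and 0.0139, limma). Its call against WT was lost without Dgcr8 KO replicate 1 (adjusted p = 0.11), WT replicate 1 (0.0523) or WT replicate 2 (0.102), and its call with miR-294 was lost without Dgcr8 KO replicate 1 (0.0798), miR-294 replicate 1 (0.0684) or miR-294 replicate 2 (0.0601).

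The small subunit factors that were found by symbol number 7, and their medians were -0.75 in Dgcr8 KO and 0.61 with miR-294. Heatr1, a member of the early processome that also supports polymerase I transcription, lies at chr13:12395398-12438677 (mm10) and had 21.02 and 17.1 FPKM in siMbnl1/2 libraries, 42.6 and 43.1 FPKM in miR-294 libraries, 19.6 and 19.7 FPKM in Dgcr8 KO libraries and 44.5 and 44.6 FPKM in WT libraries. The miR-294 and WT libraries differed little from each other and lay far above the other 4. It fell by 1.14 ± 0.10 in Dgcr8 KO (SE, adjusted p = 5.61e-05, limma) and rose by 1.09 ± 0.10 with miR-294 (adjusted p = 0.000137). Nob1, the endonuclease that makes the last cut of the small subunit RNA, had 43.4 and 46.2 FPKM in siMbnl1/2 libraries, 68.7 and 67.7 FPKM in miR-294 libraries, 51.3 and 43.8 FPKM in Dgcr8 KO libraries and 101 and 98.1 FPKM in WT libraries. Its fall was nearly as large (-1.05 ± 0.08) and its rise under miR-294 was smaller (0.52 ± 0.08, adjusted p = 0.00174, limma), so the miR-294 libraries stood above the siMbnl1/2 and Dgcr8 KO libraries and below WT without overlap. Wdr43, a processome protein whose yeast counterpart is also linked to transcription of the ribosomal DNA, had 56.3 and 44.9 FPKM in siMbnl1/2 libraries, 89.8 and 92.1 FPKM in miR-294 libraries, 46.6 and 51.4 FPKM in Dgcr8 KO libraries and 80.2 and 80.03 FPKM in WT libraries, with its miR-294 libraries the highest. The processome proteins Utp20 and Nop14 differed by -0.75 and -0.54 in Dgcr8 KO and by 0.61 and 0.53 with miR-294. Rrp12, an export factor, differed by -0.79 and 0.73. Ltv1, a late assembly factor, changed least, -0.36 ± 0.10 in Dgcr8 KO and 0.37 ± 0.10 with miR-294 (adjusted p = 0.0149 and 0.0159, limma). Its call against WT was lost without Dgcr8 KO replicate 1 (0.0702), WT replicate 1 (0.0513) or WT replicate 2 (0.0855), and its call with miR-294 without Dgcr8 KO replicate 1 (0.0739) or miR-294 replicate 2 (0.105). Utp4, found by its identifier at chr8:106893636-106923088 (mm10), had 52.8 and 50.1 FPKM in siMbnl1/2 libraries, 87.6 and 85.1 FPKM in miR-294 libraries, 53.7 and 49.9 FPKM in Dgcr8 KO libraries and 137 and 136 FPKM in WT libraries, and differed by -1.38 ± 0.06 in Dgcr8 KO and 0.73 ± 0.06 with miR-294.

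The 10 large subunit factors held both extremes of the 35, and their medians were -0.87 in Dgcr8 KO and 0.89 with miR-294. Nip7, a factor of large subunit RNA processing, lies at chr8:107056877-107060931 (mm10) and had 41.9 and 38.6 FPKM in siMbnl1/2 libraries, 89.8 and 85.4 FPKM in miR-294 libraries, 38.9 and 29.3 FPKM in Dgcr8 KO libraries and 198 and 181 FPKM in WT libraries. It had the largest fall of all 35, -2.45 ± 0.13 (SE, adjusted p = 9.16e-06, limma), and the largest rise under miR-294, 1.35 ± 0.13 (adjusted p = 0.000169), which left it well below WT. Wdr74, which takes part in large subunit maturation, had 38.5 and 35.2 FPKM in siMbnl1/2 libraries, 80.02 and 77.5 FPKM in miR-294 libraries, 37.3 and 31.5 FPKM in Dgcr8 KO libraries and 85.4 and 85.2 FPKM in WT libraries. The miR-294 and WT libraries of Wdr74 stood together, well above the other 4 libraries. Gnl3 (nucleostemin), a nucleolar GTPase known from stem cells, had 85.6 and 68.8 FPKM in siMbnl1/2 libraries, 148 and 152 FPKM in miR-294 libraries, 73.3 and 77.8 FPKM in Dgcr8 KO libraries and 141 and 138 FPKM in WT libraries, and its miR-294 libraries were the highest. Bop1, Pes1 and Wdr12 form the PeBoW complex, which is needed to process the large subunit RNAs. Bop1 differed by -1.10 in Dgcr8 KO and 0.94 with miR-294, and Wdr12 by -0.90 and 0.86. Pes1 is described after its values were seen, because it moved least of the 35. It had 93.00 and 90.3 FPKM in siMbnl1/2 libraries, 130.1 and 121 FPKM in miR-294 libraries, 97.5 and 102 FPKM in Dgcr8 KO libraries and 112 and 115 FPKM in WT libraries, a difference of -0.18 ± 0.06 against WT (adjusted p = 0.0372, limma) and of 0.33 ± 0.06 with miR-294 (adjusted p = 0.00411). The call of Pes1 against WT was lost without Dgcr8 KO replicate 1 (0.118), WT replicate 1 (0.111), WT replicate 2 (0.192), miR-294 replicate 1 (0.0616) or miR-294 replicate 2 (0.0615), and its sign turned under quantile normalization (0.0886, adjusted p = 0.328). The remaining members, the methyltransferase Nop2, the assembly factors Nop16 and Rrs1, and Rrp1b, differed by -0.73 to -0.86 in Dgcr8 KO and by 0.60 to 0.92 with miR-294.

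Promoters of the 35 genes were examined for the canonical E-box, CACGTG, which Myc with its partner Max and other helix-loop-helix factors bind. RefSeq (GRCm38.p6) gave promoters of 250 bases before and 50 after the annotated start for 29 of the 35 genes, 37 promoters in all. The motif, which reads the same on both strands, was in 6 of the 37 (16.2%), those of Ltv1, Mybbp1a, Nop2, Pes1, Utp20 and Wdr43. It was in 7.15% of 32851 promoters of the same length. These 32851 promoters belong to 27025 genes and were not limited to the tested genes, so they are not a matched background. A second motif was searched for in the same way, and was in 0 of the 37 and in 0.466% of the 32851. Whether either share differs from its background was not tested. Of the 6 genes with an E-box, Nop2 had the largest fall in Dgcr8 KO and Pes1 the smallest, and their promoters, both on the plus strand, are shown to set these side by side with the E-box in capitals. It starts 60 bases before the annotated start in Nop2 (chr6:125131633-125131932) and 2 bases after it in Pes1 (chr11:3963725-3964024).
Nop2: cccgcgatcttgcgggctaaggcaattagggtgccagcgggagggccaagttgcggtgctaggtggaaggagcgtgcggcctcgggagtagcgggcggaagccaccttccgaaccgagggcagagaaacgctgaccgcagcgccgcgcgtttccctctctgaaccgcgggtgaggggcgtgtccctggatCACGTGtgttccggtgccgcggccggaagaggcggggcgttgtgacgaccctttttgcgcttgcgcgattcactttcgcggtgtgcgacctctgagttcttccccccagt
Pes1: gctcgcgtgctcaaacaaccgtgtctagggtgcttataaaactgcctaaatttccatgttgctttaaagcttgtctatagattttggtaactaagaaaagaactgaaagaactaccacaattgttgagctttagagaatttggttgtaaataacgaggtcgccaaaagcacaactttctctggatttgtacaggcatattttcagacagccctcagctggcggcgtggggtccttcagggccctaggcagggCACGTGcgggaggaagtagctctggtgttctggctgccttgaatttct
Nop2 had 52.7 and 45.9 FPKM in Dgcr8 KO libraries, against 91.3 and 89.4 FPKM in WT libraries, a difference of -0.86 ± 0.08 (SE, adjusted p = 7.14e-05, limma), and the values of Pes1 are those above. A motif match describes these letters only, and no binding was measured. Myc itself had 2.61 and 1.37 FPKM in siMbnl1/2 libraries, 26.7 and 28.1 FPKM in miR-294 libraries, 1.99 and 2.53 FPKM in Dgcr8 KO libraries and 32.8 and 33.3 FPKM in WT libraries. It was thus high in the same libraries as the ribosome biogenesis genes, with differences of -3.39 ± 0.19 in Dgcr8 KO, 3.12 ± 0.19 with miR-294 and -0.15 ± 0.19 after siMbnl1/2 (adjusted p = 1.05e-05, 4.57e-05 and 0.726, limma), and its part in the result was not tested.

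The 5 nucleolar proteins with several functions include the most abundant transcripts of the 35. Npm1 (nucleophosmin), which also acts as a histone chaperone, had 1767 and 1419 FPKM in siMbnl1/2 libraries, 2658 and 2742 FPKM in miR-294 libraries, 1471 and 1566 FPKM in Dgcr8 KO libraries and 2657 and 2651 FPKM in WT libraries, the highest level of the 35 in every group, as Rrp12 had the lowest. It fell by 0.81 ± 0.10 in Dgcr8 KO (SE, adjusted p = 0.000306, limma) and rose by 0.83 ± 0.10 with miR-294 (adjusted p = 0.000416). The 4 pseudogene copies of Npm1 in the annotation held 2.03% of its FPKM. Ddx21, an RNA helicase that acts in both polymerase I and polymerase II transcription, had 58.2 and 50.7 FPKM in siMbnl1/2 libraries, 123 and 125 FPKM in miR-294 libraries, 54.9 and 57.4 FPKM in Dgcr8 KO libraries and 118 and 121 FPKM in WT libraries. Its fall was the largest of the 5 (-1.08 ± 0.08, adjusted p = 2.90e-05, limma) and so was its rise (1.13 ± 0.08, adjusted p = 5.88e-05). Nolc1 (Nopp140), a chaperone of snoRNPs, had 47.1 and 46.3 FPKM in siMbnl1/2 libraries, 107 and 106 FPKM in miR-294 libraries, 57.98 and 54.6 FPKM in Dgcr8 KO libraries and 108 and 110.02 FPKM in WT libraries, and its siMbnl1/2 libraries were the lowest of the 8. Ncl (nucleolin), described after its values were seen because of its abundance, had 601 and 490.05 FPKM in siMbnl1/2 libraries, 1004 and 1016 FPKM in miR-294 libraries, 575 and 609.9 FPKM in Dgcr8 KO libraries and 1031 and 1036 FPKM in WT libraries. Mybbp1a, which binds Myb and acts in the nucleolus, differed by -0.49 and 0.56.

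**Figure D3:**
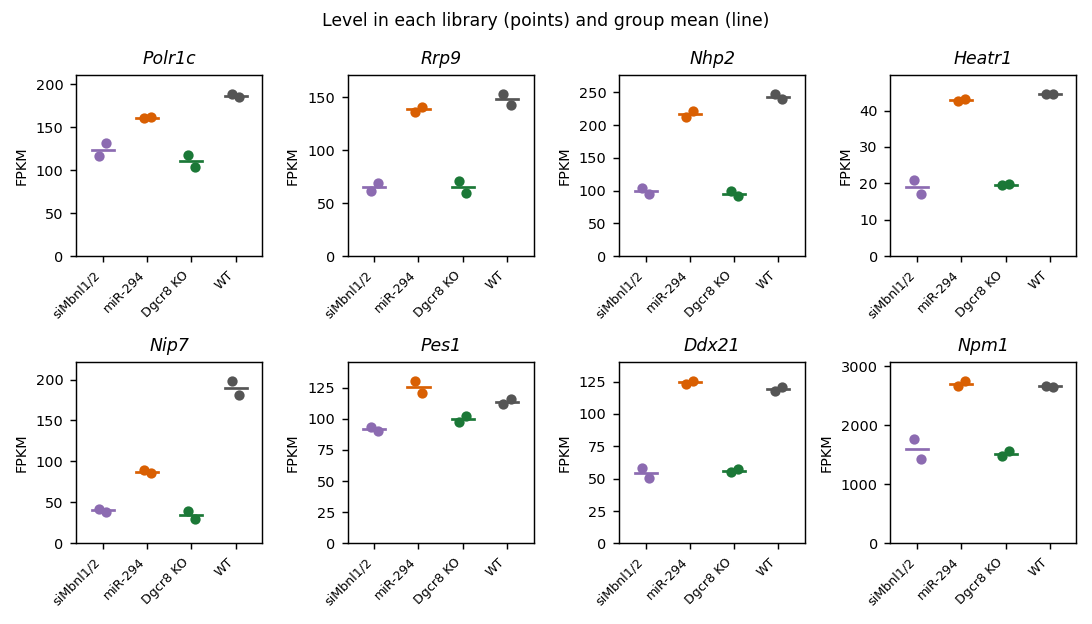
FPKM in each library for 8 of the genes, with siMbnl1/2, miR-294, Dgcr8 KO and WT from left to right and 1 point per library. For Nip7 the miR-294 points (89.8 and 85.4) lie between those of Dgcr8 KO (38.9 and 29.3) and WT (198 and 181), while for Ddx21 they (123 and 125) lie beside WT (118 and 121).

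In miR-294 cells the genes were set against WT to ask how far their levels returned. The median difference was -0.04, against -0.05 over all genes. Of the 35, 2 were called higher than WT, Polr1b and Tcof1, where 11.8% of all genes were, and 3 were called lower, Nop10, Nob1 and Nip7, where 14.7% were. These counts depended on the fit. With only the libraries compared, 8 were called higher and 10 lower, where 2659 and 3652 of 12786 genes were. Without adjustment 3 were higher and 4 lower at a limma p under 0.05, where 39.9% of all genes passed in either direction. The miR-294 mean was between 46.2% of the WT mean for Nip7 and 125% for Polr1b, with a median of 97.1%, and 23 of the 35 were within 90% to 110%. A missed threshold does not show that the other 30 had equal levels, and 11 of the 35 had both miR-294 libraries above both WT libraries and 17 had both below, where 32.6% and 44.2% of all genes did. Polr1b stood 0.31 ± 0.06 above WT (SE, adjusted p = 0.0123, limma) and Tcof1 0.30 ± 0.08 (adjusted p = 0.0247). Nop10 had 101 and 102 FPKM in miR-294 libraries, against 127 and 126 FPKM in WT libraries, a difference of -0.31 ± 0.06 (adjusted p = 0.00784, limma). These 3 calls were each lost when any 1 of the miR-294 or WT libraries was left out, with adjusted p of 0.0667 to 0.114 for Polr1b, 0.0784 to 0.174 for Tcof1 and 0.0634 to 0.0816 for Nop10. Nip7 (-1.10 ± 0.13, adjusted p = 0.00111, limma) and Nob1 (-0.54 ± 0.08, adjusted p = 0.00389) were called lower in every such case.

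Nip7 and Nob1 lie near each other on chromosome 8, whose genes at large were lower in the knockout cells than in WT. They are the 2 genes on it among the 35, which lie on 17 chromosomes, and Utp4 lies there too, so that all of them fall between 106893636 and 107425051 (mm10). Over 698 tested genes of chromosome 8 the median difference was -0.46 in miR-294 against WT, while the medians of the 19 other chromosomes ran between -0.06 and 0.01. The share called lower was 60.9% on chromosome 8 and 9.37% to 14.4% on the others. In Dgcr8 KO against WT the median of chromosome 8 was -0.42 and the others were between -0.07 and 0.09. In miR-294 against Dgcr8 KO it was -0.05 and in siMbnl1/2 against Dgcr8 KO it was 0.00, both within the range of the others (-0.13 to 0.00, and 0.00 to 0.07). Measured from the median of their chromosome, Nob1 differed from WT by -0.63 in Dgcr8 KO and by -0.07 in miR-294, Utp4 by -0.96 and -0.19, and Nip7 by -2.03 and -0.64. Copy number was not measured, and the line and the genotype cannot be told apart here. Without the 2 genes, 33 of 33 were called lower in Dgcr8 KO and 33 of 33 higher with miR-294, and Nop10 was the 1 gene called lower in miR-294 than in WT.

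**Figure D4:**
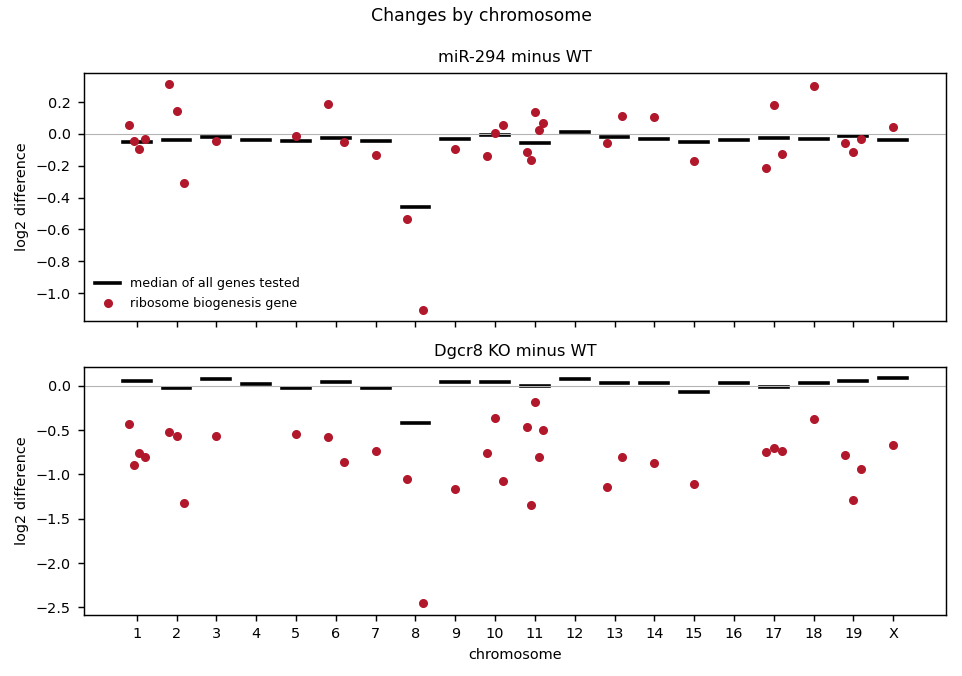
Log2 difference of the 35 genes (dots) and the median of all tested genes on the same chromosome (bars), by chromosome, for miR-294 minus WT and Dgcr8 KO minus WT. The median of chromosome 8 is -0.46 and -0.42, below those of the 19 other chromosomes, and Nip7 and Nob1 are the dots there.

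After siRNAs against Mbnl1 and Mbnl2 no gene of the 35 was called against Dgcr8 KO. Their median difference from Dgcr8 KO was 0.02, against 0.04 over all genes, with 21 positive and 14 negative. That split turned to 8 positive and 27 negative under median-of-ratios scaling, to 14 and 21 under quantile normalization, without Dgcr8 KO replicate 2 or without siMbnl1/2 replicate 1, and was 24 and 11 without siMbnl1/2 replicate 2. By limma 0 were called higher and 0 lower, where 0.868% and 0.242% of all genes were called. At an unadjusted p under 0.05, 0 were higher and 2 lower, Tcof1 and Nolc1, where 18.4% of all genes passed in either direction. Tcof1 differed by -0.34 ± 0.08 (SE, adjusted p = 0.075, limma) and Nolc1 by -0.26 ± 0.06 (adjusted p = 0.0803), and under median-of-ratios scaling and quantile normalization these same 2 were called lower. The siMbnl1/2 mean was between 78.3% of the Dgcr8 KO mean for Tcof1 and 118% for Nip7, with 29 of the 35 within 90% to 110%. Both siMbnl1/2 libraries lay above both Dgcr8 KO libraries for 2 genes and below them for 6, where 24.8% and 13.9% of all genes did so. The spread was wider here than elsewhere: the median SD of the 35 genes between the 2 libraries, on the log2 scale, was 0.0880 in siMbnl1/2, 0.0254 in miR-294, 0.0725 in Dgcr8 KO and 0.0251 in WT.

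The treatments differed from each other. In siMbnl1/2 against miR-294 the median difference of the 35 was -0.80, against 0.10 over all genes, and 34 were called lower and 0 higher, where 21% and 33% of all genes were. With median-of-ratios scaling the median over all genes was -0.01 and that of the 35 was -0.92, and the called genes split into 3362 higher and 3545 lower, against 4217 and 2685 in the scale used here. With quantile normalization these were -0.02 and -0.71, with 3131 higher and 3382 lower. For all 35 both siMbnl1/2 libraries lay below both miR-294 libraries, where 30.9% of all genes did, and for 0 above them, where 45.8% did. Ubtf was the 1 gene not called (-0.24 ± 0.09, adjusted p = 0.0503, limma). Ddx21 showed the widest gap (-1.18 ± 0.08, adjusted p = 4.29e-05), with 58.2 and 50.7 FPKM in siMbnl1/2 libraries, against 123 and 125 FPKM in miR-294 libraries. Nolc1 was next (-1.17 ± 0.06, adjusted p = 2.47e-05, limma), with 47.1 and 46.3 FPKM in siMbnl1/2 libraries, against 107 and 106 FPKM in miR-294 libraries.

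**Figure D5:**
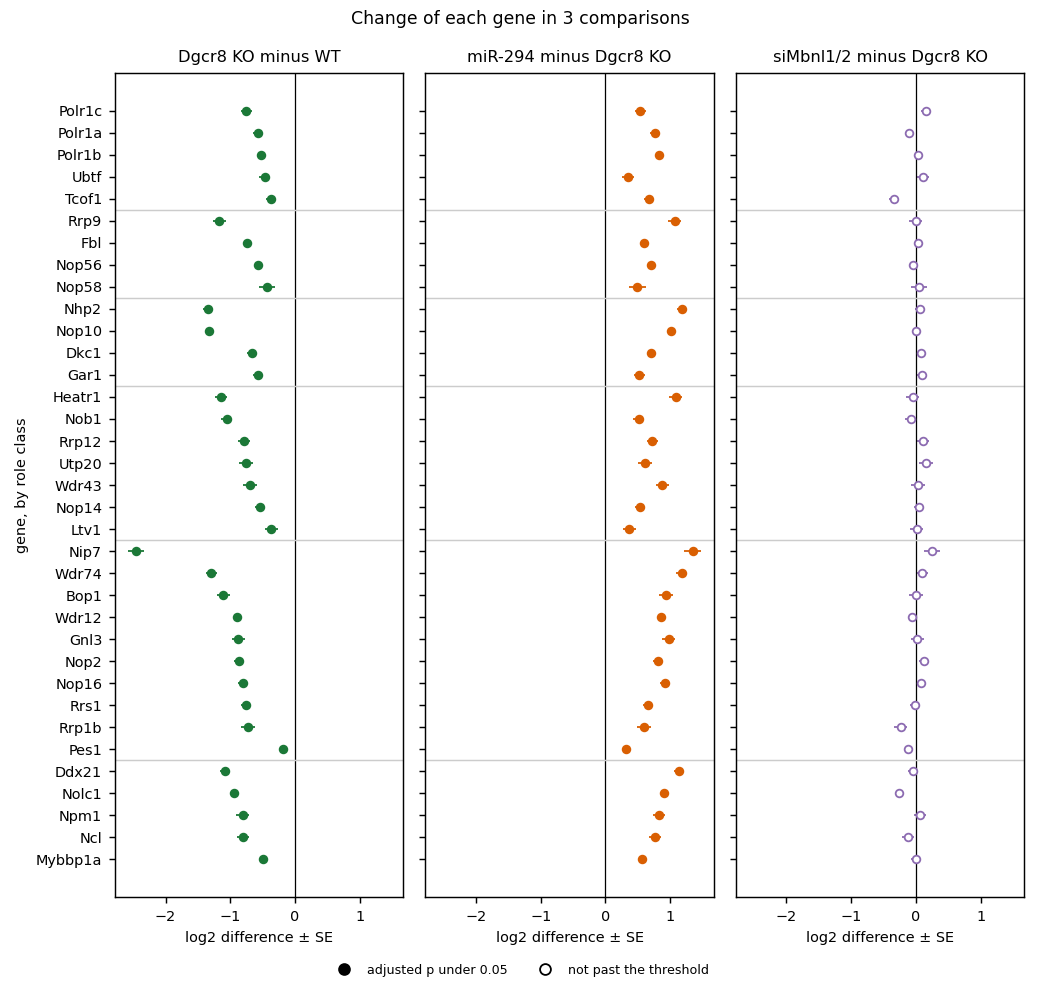
Log2 difference ± SE of each of the 35 genes in 3 comparisons, Dgcr8 KO with WT and each treatment with Dgcr8 KO, with filled points for an adjusted p under 0.05 (limma). Every gene is filled on the negative side for Dgcr8 KO and on the positive side for miR-294, and none is filled for siMbnl1/2.

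Most other genes of the pathway were called in the same directions. Of 118 further genes of ribosome biogenesis 117 were found and 116 tested. In Dgcr8 KO against WT 106 of the 116 were called lower, 1 higher and 9 in neither direction, with a median of -0.64, where 30.1% of all genes were called lower. In miR-294 against Dgcr8 KO 99 were called higher, 1 lower and 16 in neither direction, with a median of 0.58, where 22.9% of all genes were called higher. In siMbnl1/2 against Dgcr8 KO 0 were called higher and 1 lower, with a median of 0.04, where 0.868% and 0.242% of all genes were. By role, the genes called lower in Dgcr8 KO were 39 of 41 other small subunit factors, 40 of 43 other large subunit factors, 10 of 10 other snoRNP factors, 11 of 12 genes of the RNA exosome and its cofactors, and 6 of 10 other polymerase I genes. Nle1, an assembly factor of the large subunit, had the largest fall of the 116, with 8.04 and 8.82 FPKM in siMbnl1/2 libraries, 19.03 and 20.1 FPKM in miR-294 libraries, 7.396 and 7.37 FPKM in Dgcr8 KO libraries and 25.1 and 23.6 FPKM in WT libraries. It differed by -1.60 ± 0.08 in Dgcr8 KO (SE, adjusted p = 8.79e-06, limma) and by 1.29 ± 0.08 with miR-294 (adjusted p = 4.83e-05). Mak16, a large subunit factor on chromosome 8, had 72.8 and 52.7 FPKM in siMbnl1/2 libraries, 85.97 and 88.7 FPKM in miR-294 libraries, 51.1 and 58.3 FPKM in Dgcr8 KO libraries and 134 and 136 FPKM in WT libraries and differed by -1.29 ± 0.14 in Dgcr8 KO (adjusted p = 0.000176, limma). Znhit3, which takes part in box C/D snoRNP assembly, rose by 1.25 ± 0.13 with miR-294 (adjusted p = 0.000239, limma), at 35.02 and 36.2 FPKM in miR-294 libraries, against 15.3 and 13.6 FPKM in Dgcr8 KO libraries. Exosc3, a subunit of the RNA exosome, had 20.7 and 19.8 FPKM in siMbnl1/2 libraries, against 26.9 and 27.1 FPKM in Dgcr8 KO libraries. It was the 1 gene of the 116 called after siMbnl1/2 (-0.40 ± 0.06, adjusted p = 0.0381, limma), and its call was lost under 10 of 16 alternatives (highest adjusted p = 0.363), among them leaving out any 1 Dgcr8 KO, miR-294 or WT library (0.0702 to 0.143). The 1 gene called in the opposite direction in both comparisons was Taf1b, a subunit of the factor that brings polymerase I to its promoter. It had 19.8 and 17.9 FPKM in siMbnl1/2 libraries, 13.1 and 12.3 FPKM in miR-294 libraries, 15.7 and 15.3 FPKM in Dgcr8 KO libraries and 12.2 and 11.3 FPKM in WT libraries, 0.37 ± 0.08 in Dgcr8 KO and -0.27 ± 0.08 with miR-294 (adjusted p = 0.00605 and 0.0293, limma). The first call of Taf1b was lost without WT replicate 2 and the second without any 1 of the miR-294, Dgcr8 KO or WT libraries. The second was also lost with no filter (adjusted p = 0.057, limma), median-of-ratios scaling (0.0597) and quantile normalization (-0.12, adjusted p = 0.289). Against WT, 12 of the 116 were called lower in miR-294 and 2 higher, where 14.7% and 11.8% of all genes were, and 4 of the 12 were on chromosome 8, where 5 of the 116 lie.

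The transcripts of the 35 genes were also searched for the 7 letters that pair with the seed of miR-294, AGCACTT, in their 3' untranslated regions. The match was in 5 of the 35 (14.3%), those of Dkc1, Ncl, Nop58, Polr1a and Wdr12, and in 1982 of 11478 tested protein-coding genes (17.3%). The median length of these regions was 498 bases in the 35 and 1100 bases in all. The 5 genes with a match were called higher with miR-294, as were the 30 without one. The match is a description of letters and not of binding. Within 6 of the 35 genes lie 19 annotated snoRNA genes, 5 of them in Nop56 and 4 in Nop58, whose own products were not examined. Of the 35 genes, 14 overlap an exon of a gene on the other strand, and the strand setting of the counting is not given in the sources used here.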

How the data were processed

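The authors deposited FPKM per gene for 8 libraries, and per the submitters' processing notes the tools were STAR 2.5.0 and Cufflinks 2.2.1 with the build mm10. The annotation release is not given in the sources used here, and 43792 entries carry an identifier version of GENCODE M21, of which 99.9% lie at the same coordinates once 1 is added to the start. Of the 35 genes, 24 carry an M21 identifier version. M21 was used for the 3' untranslated regions, the snoRNA genes, the exons on the other strand and the pseudogene copies. The sample labels call the RNA polyA and the series design calls it total. FPKM is relative to the library, so a rise of abundant transcripts lowers all others; library sums were 473746 to 571508, and the number of reads is unknown.

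The 12786 genes whose FPKM averaged 1 or more were analysed as log2(FPKM + 1) with limma 3.58.1 (R 4.3.3, statmod 1.5.0), with 4 group means fitted to all 8 libraries, a variance trend and robust moderation, two-sided tests and Benjamini-Hochberg adjustment over the tested genes. The fit was tested on simulated data. Groups come from the sample labels. Alternatives were a pseudocount of 0.1, no filter and a mean FPKM of 5, median-of-ratios scaling, quantile normalization, group weights, only the libraries compared, the replicate number as a block, and each library left out; leaving out the genes on chromosome 8 was chosen after seeing the data. The 36 genes, the 118 pathway genes, the markers and the rule for naming genes (per role the highest level and the largest called Dgcr8 KO difference, the 3 largest called differences of each other comparison, and the 2 most raised and lowered called pathway genes of each comparison with Dgcr8 KO) were chosen with earlier results of these data known. Library values of Tcof1, Nop10, Nop2, Pes1 and Ncl were added after they were seen, and Utp4 by its identifier. Promoters and the microRNA are RefSeq sequences (GRCm38.p6). Copies were sought with blastn 2.17.0 at 95% identity over 200 bases, and 6 of the 35 genes have pseudogene copies.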

Additional observations from a re-analysis of the deposited data

How the results depend on the processing

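The count of the 35 genes called lower in Dgcr8 KO than in WT was 30 to 35, and that called higher with miR-294 than in Dgcr8 KO was 32 to 35, over the alternatives other than leaving out a library. Leaving out 1 library at a time gave 32 to 35 lower in Dgcr8 KO (medians -0.80 to -0.74), 32 to 35 higher with miR-294 (0.75 to 0.78), 31 to 35 lower in siMbnl1/2 than in miR-294 (-0.81 to -0.71), medians of -0.0252 to 0.0709 with 0 calls in siMbnl1/2 against Dgcr8 KO, and 0 to 3 higher and 2 to 4 lower in miR-294 than in WT (-0.04 to -0.02). A group left with 1 library was assumed to vary like the others. With quantile normalization the median was -0.57 for Dgcr8 KO against WT, 0.66 for miR-294 against Dgcr8 KO, -0.0281 with 2 called lower for siMbnl1/2 against Dgcr8 KO, 0.0333 for miR-294 against WT and -0.71 for siMbnl1/2 against miR-294, and Pes1 reversed in Dgcr8 KO against WT, at 0.0886. Median-of-ratios scaling gave -0.0624 with 2 called lower for siMbnl1/2 against Dgcr8 KO, 0.0076 for miR-294 against WT and -0.92 for siMbnl1/2 against miR-294. The split of all called genes for siMbnl1/2 against Dgcr8 KO was 92 higher and 112 lower with that scaling and 117 and 88 with quantile normalization, in place of 111 and 31. Among the 35, the counts for miR-294 against WT moved with the fit. They were 1 higher with no filter, 6 higher and 6 lower with group weights, 8 higher and 10 lower with only the libraries compared, and 1 lower without the genes on chromosome 8. Why these counts moved was not tested. Over all genes that comparison called 3390, against 6669 with group weights, 6311 with its own libraries and 1242 to 4578 with 1 library left out. siMbnl1/2 against Dgcr8 KO called 142, against 8 with group weights, 4 with its own libraries, 33 with the replicate block, 61 with no filter and 15 to 650 with 1 library left out, so a count of 0 among the 35 there rests on a comparison of few calls. The labels do not say that replicate numbers mark shared days, and deviations of same-numbered libraries correlated at -0.05 to 0.19. With the replicate number as a block 34 of the 35 were lower in Dgcr8 KO, since Pes1 was no longer called (adjusted p = 0.065, limma), and 35 were higher with miR-294. The depth behind FPKM is unknown, which limits what can be said of small differences.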
